A study of Mus musculus with 15 samples.

Results

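The enzymes of the tricarboxylic acid (TCA) cycle and Acod1, the enzyme that draws aconitate out of the cycle to make itaconate, were followed in mouse bone marrow macrophages grown for 7 days with M-CSF, a macrophage growth factor. The 9 genes were the cycle enzymes Cs, Idh1, Idh3a, Ogdh, Sdha, Sdhb, Fh1 and Mdh2, and Acod1, whose older name is Irg1. Each was represented by the probe set that names it alone and has the highest mean over the 15 arrays. All 9 had such a probe set and passed the filter on low values, out of 18193 genes represented in this way, of which 13703 were tested.

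RNA was measured on oligonucleotide arrays in 5 groups of 3 arrays, labelled as biological replicates. M1 cells had been polarized with E. coli lipopolysaccharide (LPS) and interferon-gamma. M2 cells had been polarized with IL-4 and IL-13. Further M2 cultures received nutlin-3a, which blocks the p53 inhibitor MDM2, or 10058F4, which the labels call a MYC inhibitor. M0 cells were left untreated. All groups share the bone marrow culture in M-CSF, and the labels used here state no mouse strain, animal age, dose, duration or vehicle, so M2 cells without an agent cannot be taken as vehicle controls. Whether replicates came from separate animals is also not stated, and p-values then measure the spread between these cultures, which may be in part technical.

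The cycle feeds acetyl-CoA into citrate and oxidizes it in steps through isocitrate, 2-oxoglutarate, succinate, fumarate and malate, delivering electrons to the respiratory chain. In mouse macrophages activated with LPS the cycle is known to be interrupted: citrate leaves for fatty acid and itaconate synthesis, and succinate accumulates. Acod1 sits at the first of these exits, and itaconate inhibits succinate dehydrogenase. The arrays measured transcripts only, so metabolite levels and flow through the cycle were not measured.

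The arrays of a group correlated with each other at r = 0.989 to 0.997 over all tested genes, with the lowest values among M1 arrays. The 8 macrophage markers listed (Adgre1, Csf1r, Itgam, Cd68, Fcgr1, Mertk, Cd14 and Lyz2) had a mean of 11.6 to 12.2 on the log2 scale on every array, against a 40th percentile of 4.34 to 4.52 over all probe sets, and none lay below that percentile in any group. In M1 against M0 cells 3 of them rose and 3 fell, with Fcgr1 at 1.98 and Cd68 at -1.41. The 5 mast cell and basophil markers lay below it in all groups. Markers of dendritic cells moved with M1 polarization. The mean of 6 genes was 5.28 to 5.63 in M1 cells and 4.49 to 4.74 in M0 cells. Of these 3 rose, Xcr1 by 2.50, Ccr7 by 1.59 and Cd209a by 0.55. Flt3 (5.70 and 5.61), Zbtb46 (5.06 and 4.87) and Siglech (5.25 and 4.98) did not pass the test. In this comparison 72.7% of all tested genes were called. Markers of T and NK cells averaged 4.81 to 4.91 in M1 cells and 4.41 to 4.52 in M0 cells, with 4 of 4 tested genes higher. Of 7 neutrophil markers 4 rose (Camp by 0.55, Elane by 0.53) and S100a9 fell by 0.78, with a mean of 5.33 to 5.46 in M1 cells and 5.08 to 5.31 in M0 cells. Of 3 tested B cell markers 2 rose, with a mean of 4.604 to 4.76 in M1 cells and 4.43 to 4.58 in M0 cells. The 3' minus 5' signal of beta-actin, a sign of RNA integrity, was 0.132 to 0.221 in M1 cells and 0.290 to 0.395 in M0 cells, and was 0.468 to 0.516 in M2 cells with 10058F4 against 0.359 to 0.416 in M2 cells. The same measure for Gapdh went the other way, at -0.1931 to -0.1245 in M1 cells and -0.286 to -0.2564 in M0 cells. For Gapdh, M2 cells with 10058F4 (-0.2805 to -0.261) overlapped M2 cells (-0.3093 to -0.2476). The part of these markers and of RNA integrity in the results below was not tested. In such bulk RNA, fewer cells of a type and less RNA per cell cannot be told apart.

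Promoter sequence was available for 8 of the 9 genes, in 14 windows of 300 bases that run from 250 bases before to 50 bases after a RefSeq transcription start on the GRCm38.p6 build. The window of Acod1 and those of Idh1 and Fh1, the 2 cycle genes with the largest falls in M1 cells, are shown because these genes carry the contrast between the exit from the cycle and the cycle itself. Capitals mark motif matches. The Acod1 window lies at chr14:103046762-103047061 on the plus strand, the Idh1 windows at chr1:65186430-65186729 and chr1:65179093-65179392 on the minus strand, and the Fh1 window at chr1:175625586-175625885 on the minus strand.
Acod1: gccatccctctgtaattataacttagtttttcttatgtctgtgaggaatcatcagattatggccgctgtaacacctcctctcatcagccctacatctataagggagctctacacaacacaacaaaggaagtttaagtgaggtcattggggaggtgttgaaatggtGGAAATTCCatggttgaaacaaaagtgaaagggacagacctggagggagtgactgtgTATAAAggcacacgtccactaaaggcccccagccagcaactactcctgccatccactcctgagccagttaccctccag
Idh1, first start: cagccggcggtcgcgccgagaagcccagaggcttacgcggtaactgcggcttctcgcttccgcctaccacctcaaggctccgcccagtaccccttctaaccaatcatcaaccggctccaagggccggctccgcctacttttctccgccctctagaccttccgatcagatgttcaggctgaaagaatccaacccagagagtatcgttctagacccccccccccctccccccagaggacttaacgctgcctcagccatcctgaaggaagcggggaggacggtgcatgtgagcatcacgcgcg
Idh1, second start: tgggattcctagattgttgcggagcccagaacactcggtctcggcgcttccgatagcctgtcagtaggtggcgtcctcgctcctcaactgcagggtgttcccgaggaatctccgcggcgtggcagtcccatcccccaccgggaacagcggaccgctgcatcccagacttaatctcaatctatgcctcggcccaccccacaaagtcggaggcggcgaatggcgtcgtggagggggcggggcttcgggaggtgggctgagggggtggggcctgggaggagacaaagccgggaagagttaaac
Fh1: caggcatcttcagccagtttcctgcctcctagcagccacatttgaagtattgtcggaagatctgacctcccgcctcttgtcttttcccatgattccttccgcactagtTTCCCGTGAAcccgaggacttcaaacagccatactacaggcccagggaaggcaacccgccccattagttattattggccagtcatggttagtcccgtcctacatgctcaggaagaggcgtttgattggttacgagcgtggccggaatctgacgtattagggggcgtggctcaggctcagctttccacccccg

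The Acod1 window differed in composition from those of the cycle genes. It had a GC content of 47.0% and 2 CpG dinucleotides, and 23.3% of all windows hold 2 or fewer, while the 13 windows of cycle genes had GC contents of 49.3% to 72.3% and 11 to 37 CpG dinucleotides. The median over all 32851 windows was 52.7% GC and 7 CpG. The Acod1 window holds TATAAA starting at position -28 from the transcription start, a motif in 13.6% of all windows. It also holds GGAAATTCC starting at position -85, a match to the NF-kappa-B-type pattern GGAANTTCC that 0.928% of windows contain. Both patterns were chosen after the sequence had been read. The narrower NF-kappa-B pattern GGGANTTTC (1.11% of windows) and the interferon response pattern GAAANNGAA (8.56%) had no match in any of the 14 windows, searched on both strands. A STAT6-type pattern, TTC and GAA with any 4 bases between, matched once, in Fh1, starting at position -142, and occurs in 6.95% of windows. The MYC-type E-box CACGTG (7.15% of windows) was found only in Ogdh, in 3 of its 6 windows. The matches at positions -141 and -162 are the same site, read in 2 windows that overlap. These matches describe letters in the windows and not bound sites.

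Polarization with LPS and interferon-gamma split Acod1 from the cycle. Acod1 was 22.3-fold higher in M1 than in M0 cells, while 6 of the 8 cycle genes fell and none rose. The falls were uneven: Idh1, which oxidizes isocitrate in the cytosol with NADP, and Fh1, the fumarase that turns fumarate into malate, fell most, and Sdhb and Mdh2 did not pass the test. Among all tested genes 72.7% were called at an adjusted p under 0.05 in this comparison, 33.6% as higher and 39.1% as lower. With each array centred on its median, higher genes made up 68.5% of all calls, against 46.2% on the deposited scale. The median difference of the 8 cycle genes was -0.42, against -0.0048 for all tested genes.

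**Figure D1:**
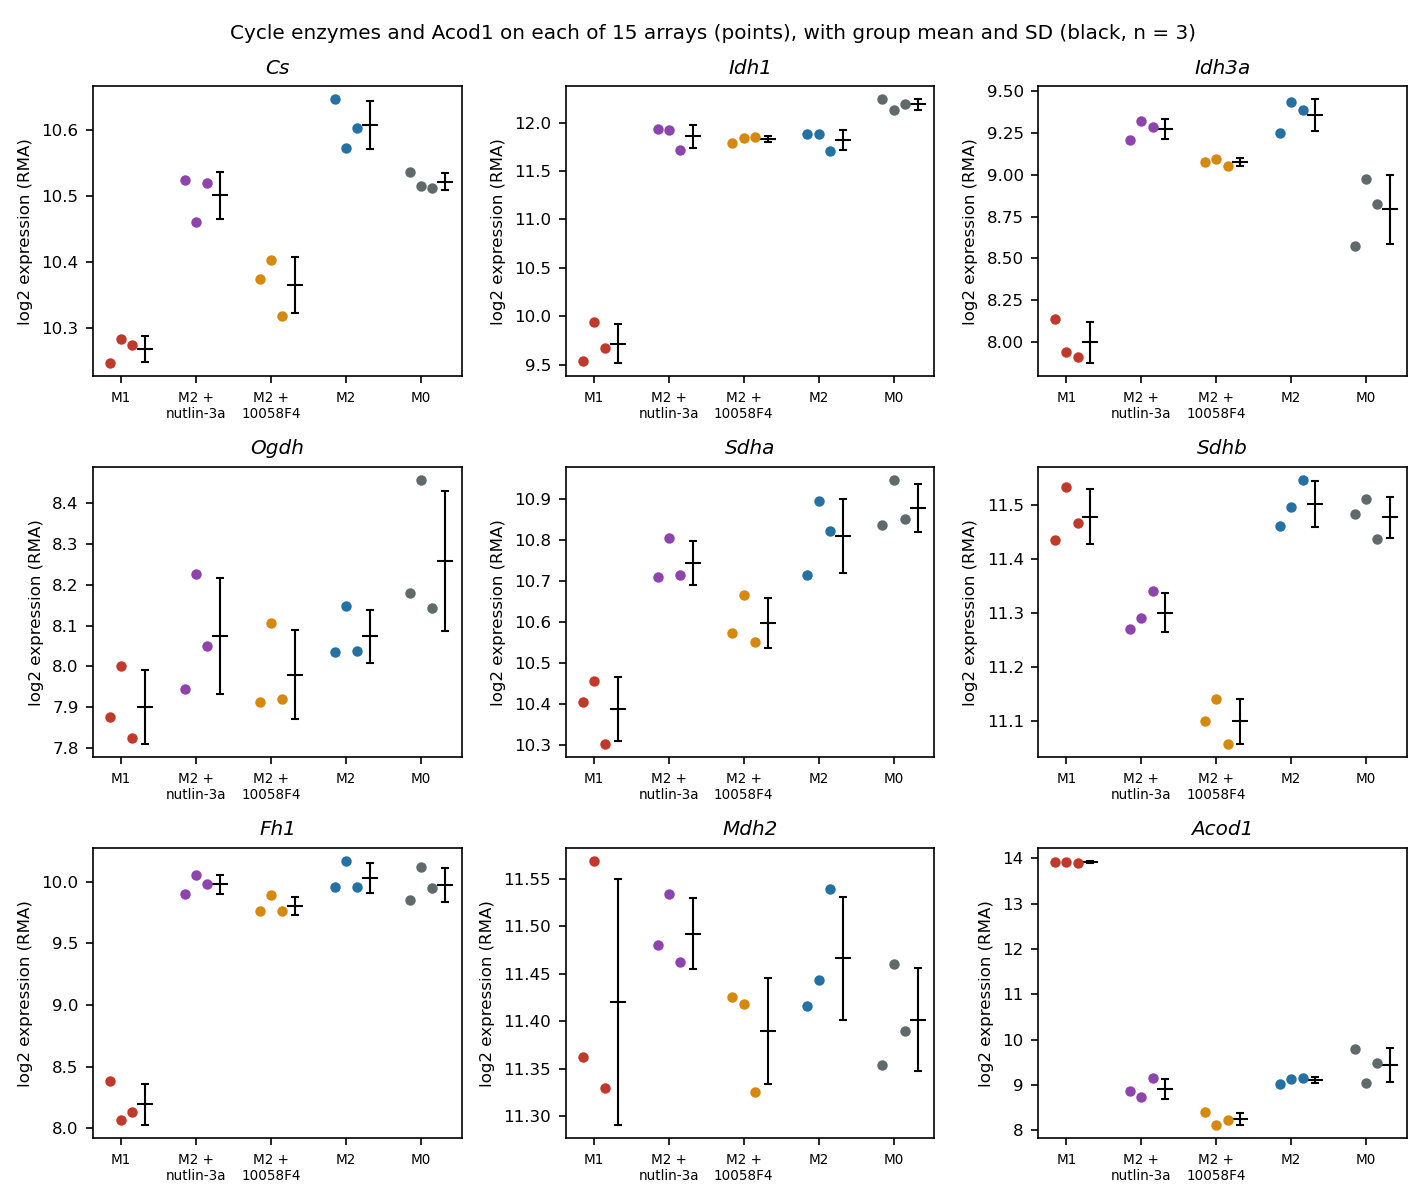
Log2 expression (vertical axes, different in each panel) of the 9 genes on each array (coloured points) in M1, M2 + nutlin-3a, M2 + 10058F4, M2 and M0 cells; the black mark is the group mean with its SD (n = 3). Acod1 stands at 13.9 in M1 cells, above all other arrays, while Idh1 and Fh1 stand below all other arrays there.

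The Acod1 probe set (1427381_at, the only one that names it) read 13.93, 13.93 and 13.89 in the 3 M1 arrays, against 9.80, 9.03 and 9.48 in the M0 arrays, on the log2 scale. Its M1 values lay near the top of the array, with 11 probe sets brighter on each M1 array and a highest value of any probe set of 14.32 to 14.36. In M0 cells 2770 to 4594 probe sets were brighter than Acod1. The difference was 4.48 (SE 0.15, adjusted p = 6.18e-12 by limma), and 57 of the 13703 tested genes had a larger one. Signals this bright are compressed on the array scale, so folds of Acod1 that use the M1 arrays may be lower bounds. M0 cells showed the widest spread of the 5 groups (SD 0.38, n = 3), with replicate 2 the lowest. Levels in M2 cells (9.02, 9.13 and 9.14), in M2 cells with nutlin-3a (8.86, 8.73 and 9.15) and in M2 cells with 10058F4 (8.39, 8.12 and 8.22) all lay below the M1 arrays. In falling order of the mean the groups were M1, M0, M2, M2 with nutlin-3a and M2 with 10058F4; the arrays of M0, M2 and nutlin-treated cells overlapped between neighbours, and the first and last groups stood clear.

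Citrate synthase Cs (1450667_a_at), which condenses acetyl-CoA with oxaloacetate, read 10.25, 10.28 and 10.27 in M1 cells, against 10.54, 10.52 and 10.51 in M0 cells. The arrays did not overlap and the difference was -0.25 (SE 0.05, adjusted p = 0.000565). The direction for Cs depended on the probe set and the scaling. Its other probe sets gave -0.10 (adjusted p = 0.153) and 0.18 (adjusted p = 0.0712), and centring each array on its median turned this value to 0.072 (adjusted p = 0.263). That centring moved the median difference of all tested genes by 0.33 in this comparison, so values here are read relative to an unmoved deposited scale.

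At the isocitrate step the fall in Idh1 (1422433_s_at) was the largest of any cycle gene. It read 9.54, 9.94 and 9.68 in M1 cells, against 12.24, 12.13 and 12.19 in M0 cells. Levels were thus 0.180 of those in M0 cells, a difference of -2.47 (SE 0.09, adjusted p = 1.86e-11), and 236 tested genes (1.72%) had a lower value. A second probe set gave -2.69 (SE 0.11). Idh3a (1432016_a_at), the catalytic subunit of the mitochondrial NAD-linked enzyme that serves the cycle proper, read 8.14, 7.94 and 7.91 in M1 cells, against 8.57, 8.98 and 8.83 in M0 cells. The difference was -0.80 (SE 0.09, adjusted p = 3.38e-06) and the arrays did not overlap. Its dimmer probe sets, at means of 4.52 to 5.84, gave -0.42, -0.30 and 0.12.

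The next step is carried out by 2-oxoglutarate dehydrogenase. Ogdh (1451274_at), its first subunit, read 7.88, 8.002 and 7.83 in M1 cells, against 8.18, 8.46 and 8.14 in M0 cells, a difference of -0.36 (SE 0.10, adjusted p = 0.00426). The groups did not overlap, but this call was lost when arrays were quantile normalized again (-0.081, adjusted p = 0.392) or centred (-0.032, adjusted p = 0.717).

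Succinate dehydrogenase, the complex that joins the cycle to the respiratory chain, showed subunits that parted. The flavoprotein Sdha (1426688_at) read 10.40, 10.46 and 10.30 in M1 cells, against 10.84, 10.95 and 10.85 in M0 cells, a difference of -0.49 (SE 0.07, adjusted p = 1.54e-05). The iron-sulfur subunit Sdhb (1418005_at) read 11.44, 11.53 and 11.47 in M1 cells, against 11.48, 11.51 and 11.44 in M0 cells. The Sdha groups stood apart and the Sdhb groups overlapped. The Sdhb difference was 0.00 (95% interval -0.12 to 0.12, adjusted p = 0.981), and it became 0.33 (adjusted p = 3.86e-05) when each array was centred.

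Fumarase Fh1 (1424828_a_at, its only probe set) read 8.38, 8.06 and 8.13 in M1 cells, against 9.85, 10.12 and 9.95 in M0 cells. Levels were 0.291 of those in M0 cells, a difference of -1.78 (SE 0.10, adjusted p = 7.32e-10), and 4.12% of tested genes had a lower value. The malate dehydrogenase of mitochondria, Mdh2 (1433984_a_at), which closes the cycle by returning oxaloacetate, read 11.36, 11.57 and 11.33 in M1 cells, against 11.35, 11.46 and 11.39 in M0 cells. Its groups overlapped and the difference was 0.02 (95% interval -0.13 to 0.17, adjusted p = 0.819), or 0.34 (adjusted p = 8.09e-05) with centred arrays.

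**Figure D2:**
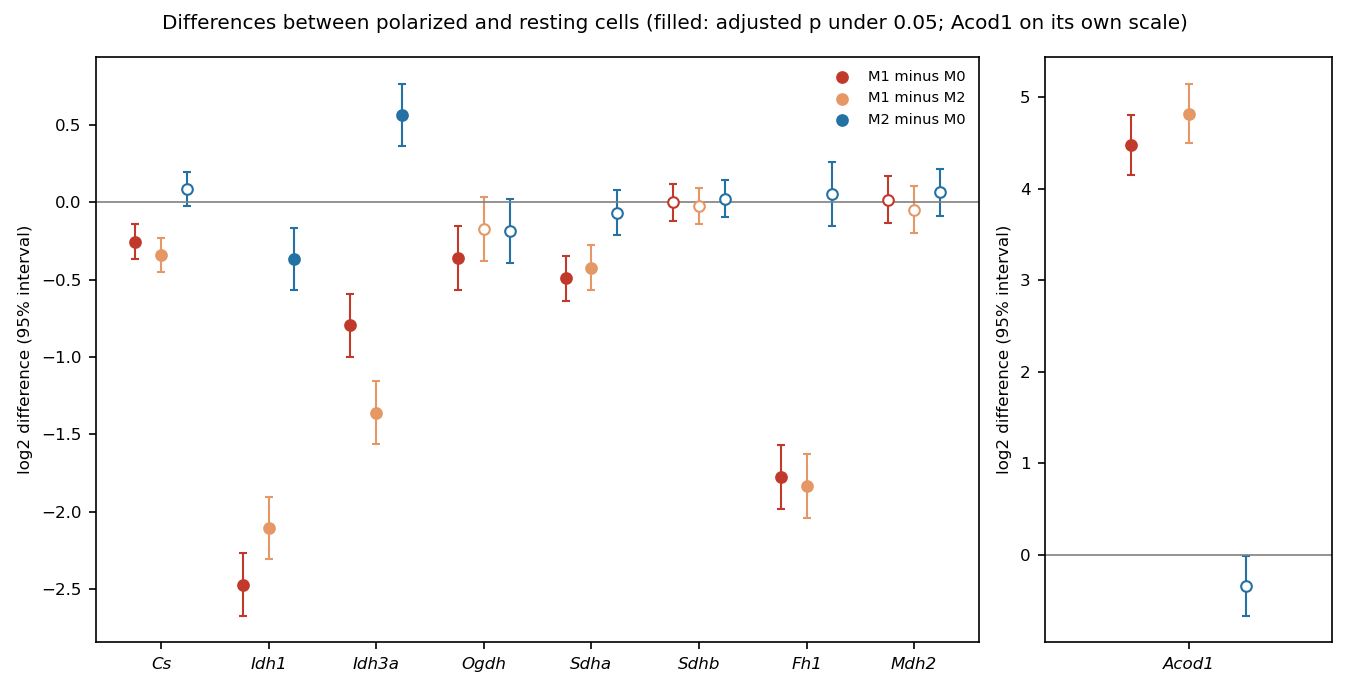
Log2 differences with 95% intervals (vertical axes) of the 8 cycle genes (left) and of Acod1 on its own scale (right) for M1 minus M0, M1 minus M2 and M2 minus M0; filled points passed an adjusted p of 0.05. Idh1, Fh1 and Idh3a lie farthest below 0 in M1 cells, and Sdhb and Mdh2 lie at 0 on the deposited scale (0.33 and 0.34 above M0 cells with centred arrays).

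Differences between genes within one array do not depend on how whole arrays are scaled, so 9 pairs of steps were compared. Only the change in such a difference between groups has a meaning, because levels of different probe sets cannot be set against each other. In 8 of 9 pairs the M1 and M0 arrays did not overlap, where 71.3% of single tested genes had groups that did not overlap. Fh1 minus Sdha was 1.29 lower, and Mdh2 minus Fh1 was 1.80 higher, in M1 than in M0 cells, so the fumarase transcript was lower relative to both neighbouring steps. Idh1 minus Cs was -0.55 ± 0.18 in M1 cells and 1.67 ± 0.04 in M0 cells (SD, n = 3). Acod1 minus Cs was 3.65 ± 0.03 in M1 cells and -1.08 ± 0.37 in M0 cells (SD, n = 3). Sdhb minus Sdha was 0.49 higher in M1 cells, so the subunits of one complex changed unequally. Sdha minus Ogdh overlapped between the groups (exact two-sided permutation p = 0.2). The other 8 pairs had an exact two-sided permutation p of 0.1, the smallest that 3 against 3 arrays allow, and 0.1125 after Benjamini-Hochberg adjustment over the 9 pairs, so none passed 0.05.

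**Figure D3:**
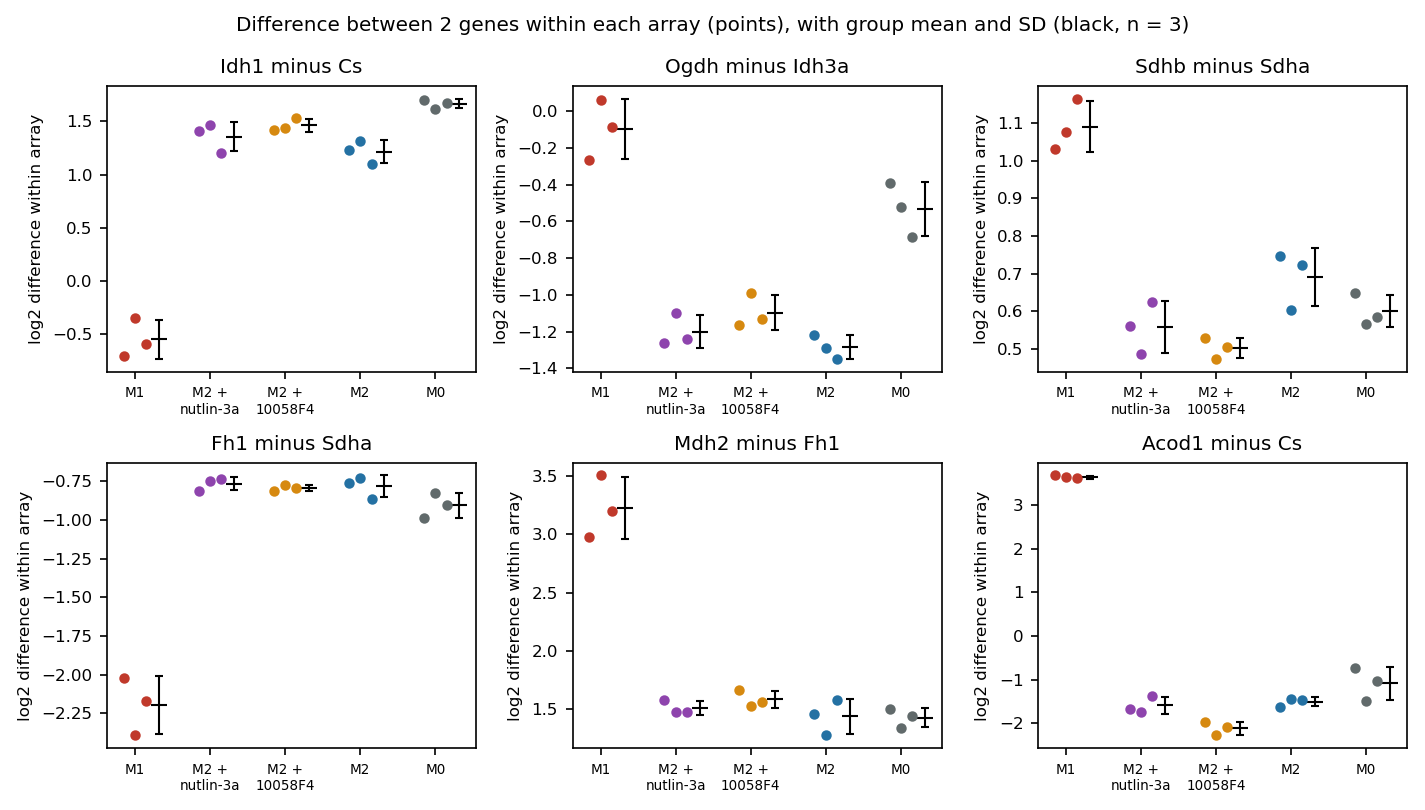
Log2 difference between 2 genes of the cycle within each array (points; vertical axes) in the 5 groups, with the group mean and SD (black, n = 3). M1 arrays stand apart from all other arrays in Idh1 minus Cs, Sdhb minus Sdha, Fh1 minus Sdha, Mdh2 minus Fh1 and Acod1 minus Cs.

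Of 12 other subunits and isoforms of the cycle that were tested, 9 fell in M1 against M0 cells and 1 rose, where 72.7% of all tested genes were called, with a median difference of -0.58. The falls were led by Idh2, the mitochondrial NADP-linked isocitrate dehydrogenase (-2.17, SE 0.09), Suclg2, the GTP-linked subunit of succinyl-CoA ligase (-1.95, SE 0.17), Aco1, the cytosolic aconitase and iron regulatory protein (-1.43, SE 0.12), and Idh3g, a regulatory subunit of the NAD-linked enzyme (-1.35, SE 0.07). A second, dimmer Idh2 probe set went the other way, at 6.40 ± 0.13 in M1 cells and 5.91 ± 0.12 in M0 cells (SD, n = 3), so the direction for Idh2 rests on the brighter one.

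The remaining subunits are named to complete their complexes and were chosen after their values were seen. All 3 genes of the NAD-linked isocitrate dehydrogenase fell, with Idh3b at -0.75 (SE 0.05). In succinyl-CoA ligase the shared subunit Suclg1 fell by 0.42 on the log2 scale, and the ATP-linked Sucla2 did not pass the test (-0.14, adjusted p = 0.112). In the oxoglutarate dehydrogenase complex Dlst was at -0.03 (adjusted p = 0.703) and Dld, which other dehydrogenases share, fell by 0.24. By their brightest probe sets the membrane anchors of succinate dehydrogenase also parted: Sdhc fell by 0.25 and Sdhd rose by 0.27 (adjusted p = 0.001). The dimmer probe sets did not show this. That of Sdhc read 8.62 ± 0.07 in M1 cells and 8.40 ± 0.13 in M0 cells (SD, n = 3). That of Sdhd read 8.20 ± 0.15 in M1 cells and 8.26 ± 0.13 in M0 cells (SD, n = 3). Between the malate dehydrogenases, the cytosolic Mdh1 fell by 1.19 (SE 0.10) while mitochondrial Mdh2 did not pass the test on the deposited scale.

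**Figure D4:**
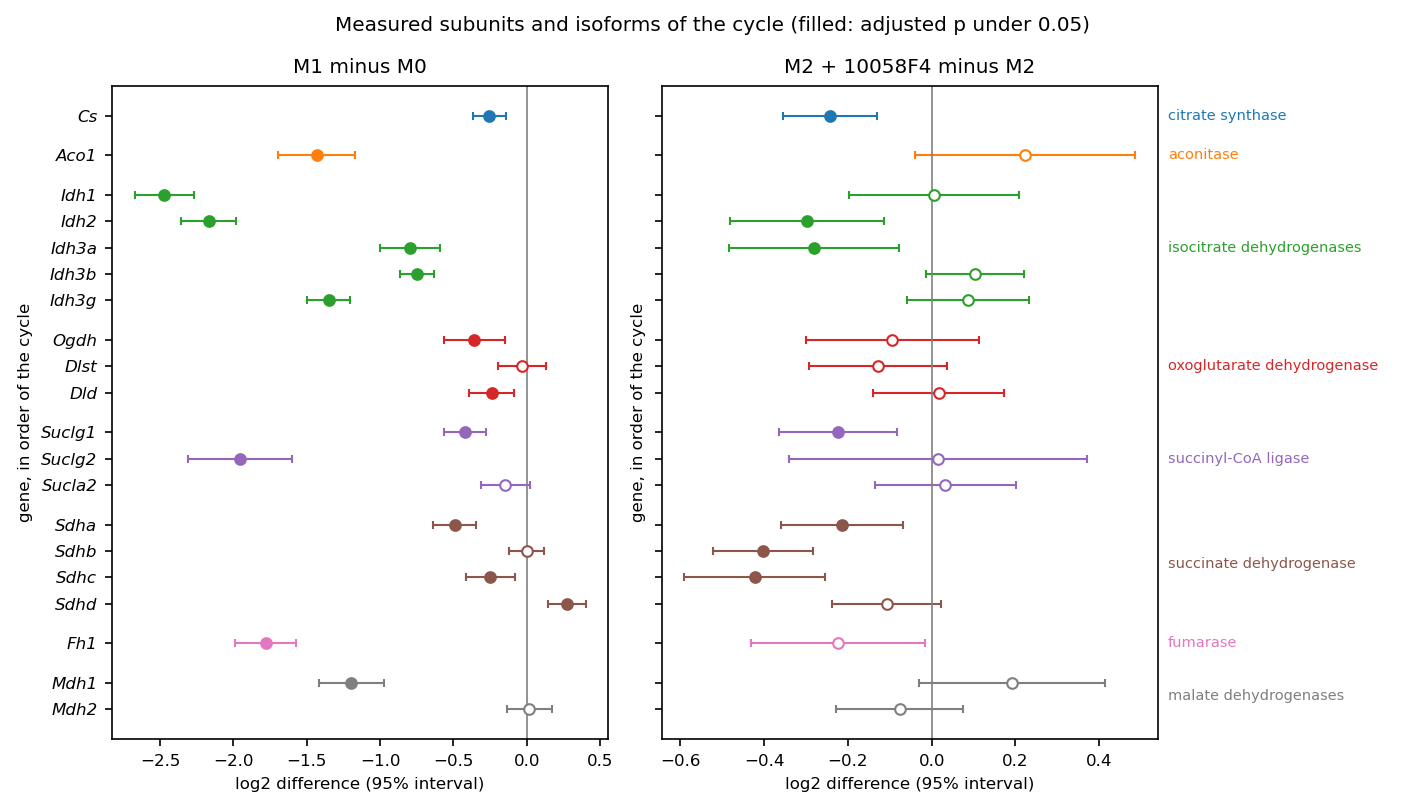
Log2 differences with 95% intervals (horizontal axes, different scales) of the measured subunits and isoforms in the order of the cycle, for M1 minus M0 (left) and M2 + 10058F4 minus M2 (right); filled points passed an adjusted p of 0.05. The isocitrate dehydrogenases, Suclg2, Fh1 and Mdh1 lie far below 0 on the left, and subunits of succinate dehydrogenase lead the falls on the right.

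The genes that feed and drain the cycle were read against the same 72.7% of all tested genes called in M1 against M0 cells, 39.1% lower and 33.6% higher. Of 12 tested genes of pyruvate entry 9 fell and 3 rose. The phosphatases that switch pyruvate dehydrogenase on fell (Pdp2 at -1.43 and Pdp1 at -1.0005), as did the phosphatase regulatory subunit Pdpr (-1.12). Of the kinases that switch pyruvate dehydrogenase off, Pdk3 rose by 1.02. The other tested kinases are named to complete the set. Pdk1 was higher (8.91 ± 0.38 in M1 and 8.24 ± 0.28 in M0 cells) and Pdk2 lower (5.11 ± 0.02 and 5.32 ± 0.08; SD, n = 3). Of 6 tested genes of glutamine and aspartate entry 5 fell and 1 rose. The glutamate dehydrogenase Glud1 fell by 1.04 and the cytosolic aspartate transaminase Got1 fell by 1.40, and Ass1, which uses aspartate to rebuild arginine, rose by 1.28. The alanine transaminase Gpt2 fell by 1.35 by its brightest probe set. A probe set without the suffix _a_at, _s_at or _x_at gave 0.32, so the direction for Gpt2 is uncertain.

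Among 6 mitochondrial carriers of cycle acids 4 rose and 1 fell, where 72.7% of all tested genes were called. The aspartate and glutamate carriers went in opposite directions: Slc25a12 rose by 1.93 (SE 0.09) and Slc25a13 fell by 1.43 (SE 0.08). The glutamate carrier Slc25a22 rose by 1.64 and the dicarboxylate carrier Slc25a10 by 1.08. Of the 6 genes of cytosolic citrate and malate use 4 fell and 1 rose, with the fatty acid synthase Fasn at -1.49, the acetyl-CoA carboxylase Acaca at -1.18, the cytosolic malic enzyme Me1 at 1.08 and the mitochondrial malic enzyme Me2 at -0.44, a call lost without M0 replicate 2 (-0.24, adjusted p = 0.0978) or with centred arrays (-0.11, adjusted p = 0.455). Of the 4 assembly factors of succinate dehydrogenase, Sdhaf3 (-1.65), Sdhaf4 (-1.08) and Sdhaf1 (-0.39) fell and Sdhaf2 (0.33), which helps attach the flavin to Sdha, rose. The Sdhaf1 call was lost without M1 replicate 3 (-0.26, adjusted p = 0.06) and with centred arrays (-0.063, adjusted p = 0.575).

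Of 8 tested genes that work beside Acod1 in activated macrophages, 6 were higher and 2 lower in M1 than in M0 cells, where 72.7% of all tested genes were called. The cytokine gene Il1b rose by 5.27, the nitric oxide synthase Nos2 by 3.63, the transcription factor Irf1, known to act on Acod1 in mouse macrophages, by 2.80, and Tnfaip3, an inhibitor of NF-kappa-B signalling, by 2.36. The 2 lower genes were the antioxidant transcription factor Nfe2l2 (-0.69, adjusted p = 2.12e-07) and Clybl, an enzyme of itaconate breakdown (-0.92, adjusted p = 0.0399). The count of lower genes stayed 2 in 5 of 16 alternatives and was 1 in the others, among them leaving out M1 replicate 2 or any 1 of the M0 arrays. Those named as higher are known to be induced by LPS or interferon-gamma and were picked by the size of their difference.

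In M2 cells, polarized with IL-4 and IL-13, Idh3a was higher and Idh1 lower than in M0 cells. These were the only calls, 1 rise and 1 fall, among the 8 cycle genes, where 31% of all tested genes were called, 12.7% as higher and 18.4% as lower. Higher genes made up 61% of calls with centred arrays, against 40.8% on the deposited scale. Markers moved here too: of 8 macrophage markers 3 fell (Mertk by 1.43, Fcgr1 by 1.10 and Cd14 by 0.96) and none rose. Of 3 tested B cell markers 2 rose (Pax5 by 0.46 and Cd79b by 0.33). The neutrophil marker S100a8 fell by 0.69 and Mpo rose by 0.26, and the NK cell marker Ncr1 rose by 0.35. The part of these markers in the M2 results was not tested. Idh3a rose to 9.25, 9.44 and 9.38 in M2 cells, against 8.57, 8.98 and 8.83 in M0 cells (0.57, SE 0.09, adjusted p = 0.000418), and 3.63% of tested genes had a higher difference. The groups did not overlap. That call rests on the brightest of its probe sets: the mean of all 4 gave 0.19 (adjusted p = 0.245). Idh1 fell to 11.88, 11.89 and 11.70 in M2 cells, against 12.24, 12.13 and 12.19 in M0 cells (-0.37, SE 0.09, adjusted p = 0.00909), again without overlap.

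The other members did not pass the test in M2 against M0 cells. Cs (0.09), Sdha (-0.07), Sdhb (0.02), Fh1 (0.06) and Mdh2 (0.06) differed by less than 0.1 by the probe sets used. A second Sdha probe set was lower in M2 cells (-0.21, adjusted p = 0.0234), and a second Mdh2 probe set gave 0.20 (adjusted p = 0.0688). Ogdh was at 8.03, 8.15 and 8.04 in M2 cells and 8.18, 8.46 and 8.14 in M0 cells (-0.19, adjusted p = 0.166), and passed when same-numbered cultures were blocked (adjusted p = 0.0281), which raised the falls among cycle genes to 2. Acod1 was lower by 0.34 in M2 cells (SE 0.15, adjusted p = 0.109), with overlapping arrays, and passed only without M0 replicate 2, the lowest M0 array (-0.54, adjusted p = 0.00625). In 3 of the 9 pairs of steps the M2 and M0 arrays did not overlap, all of them pairs with Idh1 or Idh3a (exact two-sided permutation p = 0.1 for each, 0.3 adjusted), where 47.2% of single genes did not overlap.

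Calls among genes around the cycle were set beside the 31% of all tested genes called in M2 against M0 cells. Of all tested genes 12.7% were called higher and 18.4% lower. In the list of cytosolic citrate and malate use the acetyl-CoA synthetase Acss2 fell by 1.31, Fasn rose by 0.94, Me2 fell by 0.77 and the citrate lyase Acly rose by 0.25, so 2 of 6 rose and 2 fell. The Acly call was lost without M2 replicate 2 (0.24, adjusted p = 0.0501) and with the mean of its probe sets (0.13, adjusted p = 0.0539). A second Acly probe set read 10.06 ± 0.07 in M2 cells and 10.09 ± 0.05 in M0 cells (SD, n = 3). A dimmer one read 8.27 ± 0.08 in M2 cells and 7.995 ± 0.09 in M0 cells (SD, n = 3). Of the 12 other cycle genes 1 fell, the cytosolic Mdh1 (-0.40, adjusted p = 0.00973), a call not made with the mean of its probe sets (-0.13, adjusted p = 0.163). Among genes of pyruvate entry Pdk1, a kinase that inactivates pyruvate dehydrogenase, fell by 0.54 and Pdp1 by 0.50, the other 10 tested genes not being called. Glud1 fell by 0.41 and Got2, the mitochondrial aspartate transaminase, by 0.22, while the carrier Slc25a22 rose by 0.35 and Sdhaf4 fell by 0.32. The Pdk1 call was lost without M0 replicate 2 or 3 or M2 replicate 1 (adjusted p 0.0614 to 0.0778), and that of Slc25a22 without M0 replicate 2 or M2 replicate 3 (0.104 and 0.084). The Got2 call was lost on leaving out M0 replicate 2 or 3 or any M2 array (0.0597 to 0.179). With same-numbered cultures blocked the carrier Slc25a13 also rose (0.20, adjusted p = 0.0401), so 2 carriers rose. Beside Acod1, which was not called, Irf1 rose by 1.10, Atf3, a stress transcription factor, by 0.91 and Tnfaip3 by 0.48, and Nfe2l2 fell by 0.27.

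Set directly against M2 cells, M1 cells showed Acod1 28.3-fold higher (4.82, SE 0.15, adjusted p = 2.39e-12) and 5 of the 8 cycle genes lower, where 64.7% of tested genes were called, 28.1% as higher and 36.5% as lower. Higher genes made up 65.4% of calls with centred arrays, against 43.5% on the deposited scale. These values share the M1 arrays with the comparison to M0 cells. Idh3a read 8.14, 7.94 and 7.91 in M1 cells against 9.25, 9.44 and 9.38 in M2 cells (-1.36, SE 0.09, adjusted p = 1.05e-08) by its brightest probe set, while the dimmer ones gave -0.44, -0.60 and 0.25. Idh1 differed by -2.11 (SE 0.09), Fh1 by -1.83 (SE 0.10), Sdha by -0.42 (SE 0.07) and Cs by -0.34 (SE 0.05). Ogdh did not pass (-0.17, adjusted p = 0.132), and neither did Sdhb (-0.02) or Mdh2 (-0.05), which became 0.22 (adjusted p = 0.00134) and 0.20 (adjusted p = 0.0068) with centred arrays, a centring that moved all genes by 0.24. The arrays did not overlap in any of the 9 pairs of steps (exact two-sided permutation p = 0.1, also after adjustment), where 64.9% of single genes did not overlap. Ogdh minus Idh3a was 1.19 higher in M1 than in M2 cells and Fh1 minus Sdha was 1.41 lower.

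The lists around the cycle were read against the same 64.7% of all tested genes called, 28.1% as higher and 36.5% as lower. Of the 6 genes of cytosolic citrate and malate use 3 were lower in M1 than in M2 cells, led by Fasn (-2.42) and Acaca (-1.43). The 2 higher genes were Acss2 (1.27) and Me1 (1.17). Of the other cycle genes 8 of 12 fell and 1 rose, led by Idh2 (-2.08 by its brighter probe set and 0.41 by the dimmer), Suclg2 (-1.65), Idh3g (-1.17) and Aco1 (-1.14). Pyruvate entry showed 7 falls and 2 rises among 12, with the kinases Pdk1 (1.20) and Pdk3 (0.84) as the rises and Pdp2 (-1.46) and Pdpr (-0.98) leading the falls. Glutamine and aspartate entry showed 4 falls and 1 rise among 6. The carriers again held 4 rises, led by Slc25a12 (1.90), and 1 fall, Slc25a13 (-1.64). Beside Acod1, 6 of 8 genes rose and 1 fell, with Il1b at 5.28 and Nos2 at 3.72.

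Nutlin-3a added to M2 cells changed 1 of the 9 genes, as read by the probe sets used. Sdhb read 11.27, 11.29 and 11.34 in M2 cells with nutlin-3a, against 11.46, 11.50 and 11.55 in M2 cells (-0.20, SE 0.06, adjusted p = 0.0254), without overlap. In all, 15.4% of tested genes were called, 9.56% as higher and 5.85% as lower, and higher genes made up 41.2% of calls with centred arrays, against 62% on the deposited scale. The Sdhb call was lost without nutlin-3a replicate 1 (adjusted p = 0.0836) or 2 (0.0791), or without M2 replicate 2 (0.0613) or 3 (0.0893), with values of -0.18 to -0.20. Acod1 was at -0.19 (95% interval -0.51 to 0.14, adjusted p = 0.459), and Idh1 (0.04), Idh3a (-0.08), Ogdh (0.00), Sdha (-0.07), Fh1 (-0.05) and Mdh2 (0.03) were not called. Cs read 10.52, 10.46 and 10.52 in M2 cells with nutlin-3a, against 10.65, 10.57 and 10.60 in M2 cells, which did not overlap but missed the threshold (-0.11, adjusted p = 0.193). It passed when arrays were quantile normalized again (-0.16, adjusted p = 0.0447). The other Cs probe sets gave -0.22 (adjusted p = 0.0281) and -0.01 (adjusted p = 0.974). One pair of steps, Cs minus Mdh2, did not overlap (-0.13, exact two-sided permutation p = 0.1, adjusted p = 0.6), where 38.9% of single genes did not overlap.

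10058F4 added to M2 cells lowered Acod1 and 4 of the 8 cycle genes by the probe sets used, and raised none. Among all tested genes 20.9% were called, 10.6% as higher and 10.2% as lower. Markers moved with the agents too: of 3 tested B cell markers 2 fell with 10058F4 (Cd79b by 0.67, Pax5 by 0.31) and 2 with nutlin-3a (Cd79b by 0.49, Pax5 by 0.32). Their mean was 4.31 to 4.53 with 10058F4, 4.33 to 4.50 with nutlin-3a and 4.72 to 4.88 in M2 cells. In M0 cells it was 4.43 to 4.58. The macrophage marker Mertk rose by 2.15 with 10058F4 and by 1.29 with nutlin-3a, and Fcgr1 fell by 0.47 and 0.66. Their part in the results was not tested. Acod1 read 8.39, 8.12 and 8.22 in M2 cells with 10058F4, against 9.02, 9.13 and 9.14 in M2 cells. This difference of -0.85 (SE 0.15, adjusted p = 0.0011), 0.554 of the M2 level, was the largest among the 9 genes, and 1.21% of tested genes had a lower value. The arrays of the groups stood well apart.

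Among the 8 cycle genes Sdhb moved most under 10058F4. It read 11.10, 11.14 and 11.06 in M2 cells with 10058F4, against 11.46, 11.50 and 11.55 in M2 cells (-0.40, SE 0.06, adjusted p = 0.000135). Cs read 10.37, 10.40 and 10.32 in M2 cells with 10058F4, against 10.65, 10.57 and 10.60 in M2 cells (-0.24, SE 0.05, adjusted p = 0.00403). For both genes the arrays of the groups stood apart. Idh3a (-0.28, adjusted p = 0.0491) and Sdha (-0.21, adjusted p = 0.0376) passed narrowly. Without 10058F4 replicate 1 or 3, or without M2 replicate 2 or 3, neither passed (adjusted p 0.0976 to 0.15) and the count of falls was 2. Without 10058F4 replicate 2, Idh3a alone was lost (0.0964) and the count was 3. Fh1 (-0.22, adjusted p = 0.124) missed the threshold although its arrays did not overlap, and Idh1 (0.00), Ogdh (-0.09) and Mdh2 (-0.08) overlapped. A second, dimmer Idh1 probe set was higher with 10058F4 (0.35, adjusted p = 0.0395), so the result for Idh1 depends on the probe set.

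**Figure D5:**
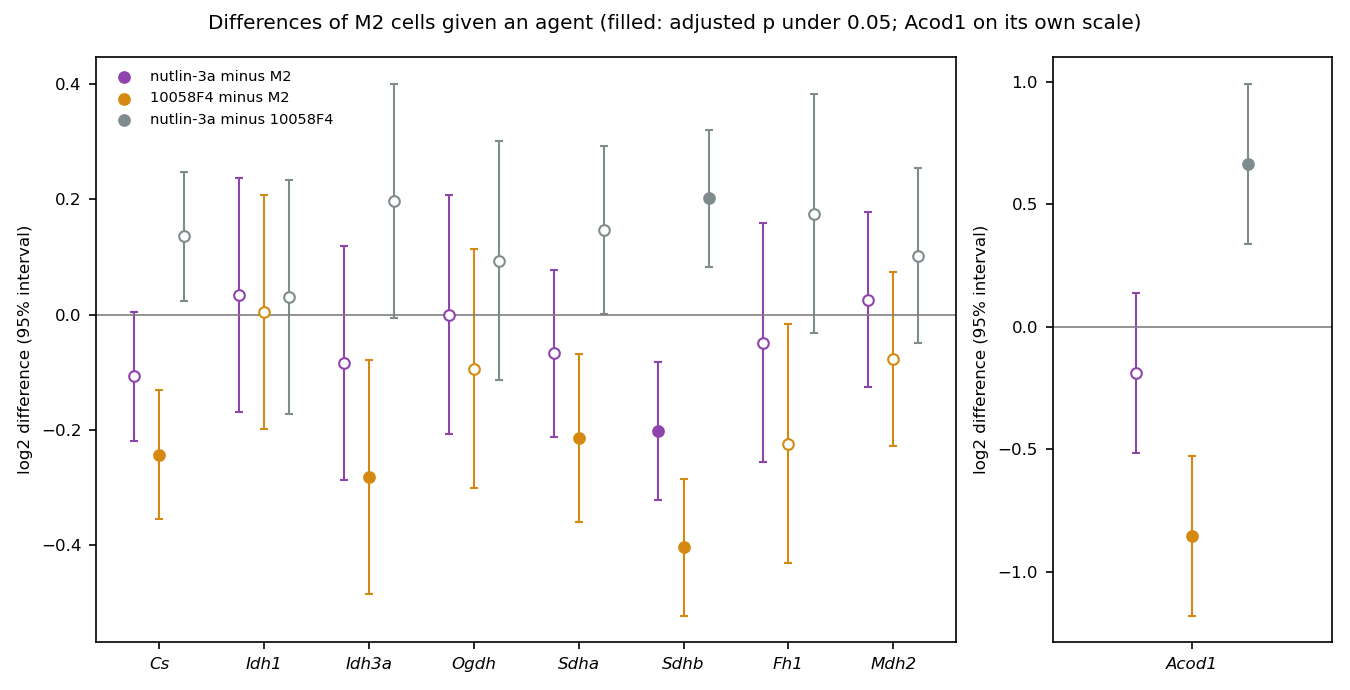
Log2 differences with 95% intervals (vertical axes) of the 8 cycle genes (left) and of Acod1 on its own scale (right) for nutlin-3a minus M2, 10058F4 minus M2 and nutlin-3a minus 10058F4, all in M2 cells; filled points passed an adjusted p of 0.05. Acod1, Sdhb and Cs lie below 0 with 10058F4, and Sdhb alone passed with nutlin-3a.

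In 6 of the 9 pairs of steps the arrays of 10058F4-treated and untreated M2 cells did not overlap (exact two-sided permutation p = 0.1 for each, 0.15 adjusted), where 44.2% of single genes did not overlap. Sdhb minus Sdha was 0.50 ± 0.03 in M2 cells with 10058F4 and 0.69 ± 0.08 in M2 cells (SD, n = 3), a shift of -0.19 where the M1 shift against M0 cells was 0.49. Acod1 minus Cs was lower by 0.61. Fh1 minus Sdha, which separated M1 from M0 cells, shifted by -0.01 and overlapped (exact p = 0.9).

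The other cycle genes called under 10058F4 were the membrane anchor of succinate dehydrogenase, Sdhc (-0.42, adjusted p = 0.00145), Idh2 (-0.30, adjusted p = 0.0239) and Suclg1 (-0.22, adjusted p = 0.026), all lower, out of 12 tested. The carriers Slc25a13 (-0.997), Slc25a10 (-0.61) and Slc25a12 (-0.39) fell, 3 of 6. These counts stand beside 20.9% of all tested genes called under 10058F4, 10.6% as higher and 10.2% as lower. Pdp1 (0.49), Gpt2 (0.72) and Acss2 (0.80) rose, each the only call in its list. Of the genes beside Acod1, Irf1 (-0.99), Atf3 (-0.75) and Nfe2l2 (-0.41) fell and Hif1a, the hypoxia transcription factor, rose (0.36). With nutlin-3a 15.4% of all tested genes were called, 9.56% as higher and 5.85% as lower. The calls in these lists that fell with nutlin-3a were Slc25a13 (-0.71), Slc25a10 (-0.38), Irf1 (-0.28) and Atf3 (-0.41). Those that rose with it were Pdp1 (0.62), Gpt2 (0.58), Acss2 (0.67), Sdhaf1 (0.40), Sdhaf3 (0.39) and Hif1a (0.48).

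Several of these calls rested on single arrays or probe sets. Under 10058F4, Idh2 and Suclg1 lost theirs without 10058F4 replicate 1 or 3 or M2 replicate 2 or 3 (adjusted p 0.0547 to 0.0915 and 0.0508 to 0.0998). With nutlin-3a, leaving out 1 array lost the calls of Slc25a10 (nutlin-3a replicate 1 or 2 or M2 replicate 3, adjusted p 0.0547 to 0.0634), Irf1 (nutlin-3a replicate 2 or 3 or any M2 array, 0.0567 to 0.12) and Atf3 (nutlin-3a replicate 1 or 2 or any M2 array, 0.0633 to 0.181). The same held for Sdhaf1 (nutlin-3a replicate 2 or 3 or any M2 array, 0.0513 to 0.148) and Sdhaf3 (nutlin-3a replicate 2 or 3 or M2 replicate 1 or 2, 0.0544 to 0.0749). Other calls were lost with a probe set free of the suffixes _a_at, _s_at and _x_at. Gpt2 was then at 0.12 under 10058F4 (adjusted p = 0.328) and -0.060 under nutlin-3a (adjusted p = 0.671). Acss2 was then at 0.35 under nutlin-3a (adjusted p = 0.0665). The mean of all probe sets left Hif1a at 0.087 under 10058F4 (adjusted p = 0.669) and 0.21 under nutlin-3a (adjusted p = 0.269), and Slc25a12 at -0.12 under 10058F4 (adjusted p = 0.503). Blocking same-numbered cultures added Dld (0.20, adjusted p = 0.0397) as higher and Sdhc (-0.22, adjusted p = 0.043) as lower with nutlin-3a, and Got2 (-0.19, adjusted p = 0.0273) as lower with 10058F4. The values of both agents are set against the same M2 arrays, so their likeness in these lists is not independent.

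Compared directly, M2 cells with nutlin-3a had higher Acod1 (0.67, SE 0.15, adjusted p = 0.0157) and Sdhb (0.20, SE 0.06, adjusted p = 0.043) than M2 cells with 10058F4, where 6.96% of tested genes were called, 4.24% as higher and 2.72% as lower. Higher genes made up 44.4% of calls with centred arrays, against 60.9% on the deposited scale. Acod1 read 8.86, 8.73 and 9.15 with nutlin-3a, against 8.39, 8.12 and 8.22 with 10058F4, without overlap. The call was lost without nutlin-3a replicate 3 (adjusted p = 0.0847) or without 10058F4 replicate 2 (0.0702) or 3 (0.0588), and the Sdhb call was lost on leaving out any 1 array. The doses are not given, so the agents cannot be compared at matched exposure. Irf1 (0.71, adjusted p = 5.48e-05), Nfe2l2 (0.45, adjusted p = 0.000389) and Slc25a13 (0.29, adjusted p = 0.0343) were also higher with nutlin-3a, the last a call lost on leaving out nutlin-3a replicate 2 or 3 or any 10058F4 array (adjusted p 0.055 to 0.156). With same-numbered cultures blocked Got1 (0.25, adjusted p = 0.0325) and Sdhaf1 (0.40, adjusted p = 0.0311) were higher as well. Acod1 minus Cs was the 1 pair of steps of 9 without overlap (0.53, exact p = 0.1, adjusted p = 0.45), where 32% of single genes did not overlap.

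Across the 15 arrays the 9 genes formed no single pattern. As a description, since M1 arrays drive such values and the points share groups, Pearson's r was 0.964 between Idh1 and Fh1, 0.922 between Idh3a and Fh1, and -0.952 between Fh1 and Acod1. Sdha and Sdhb, subunits of one enzyme, had an r of 0.205, and Mdh2 had an r of 0.0905 with Idh1 and 0.123 with Fh1. The tested genes most like Acod1 over these arrays were Tap2 (0.9955), a peptide transporter subunit, Pnp (0.9949), a purine phosphorylase, Zup1 (0.9945), Igtp (0.9943), an interferon-induced GTPase, and Casp4 (0.9939), an inflammatory caspase. For Idh1 they were Ptpn4 and Dock1 (0.9961 and 0.9956), for Fh1 Ndufb11 and Ola1 (0.9926 each) and for Idh3a Ttc27 and Nsun2 (0.9897 and 0.9891). The likest genes were Mrpl19 (0.9698) and Park7 (0.9651) for Sdha, Nol4l (0.9664) and Map3k11 (0.9605) for Sdhb, Mrpl41 (0.9458) and Stx6 (0.9356) for Cs, and Nelfe (0.9386) and Tdrkh (0.9122) for Ogdh. Mdh2, whose level varied least, had none above 0.8709, the value for Clcn6, followed by Pgrmc2 at 0.8575.

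The order of the groups differed between genes. Cs was highest in M2 cells and lowest in M1 cells, and the order between was M0, M2 with nutlin-3a and M2 with 10058F4, with overlap only between the M0 and nutlin-3a arrays. Sdhb was lowest not in M1 cells but in M2 cells with 10058F4, followed by nutlin-3a, with M0, M1 and M2 cells overlapping above them. Idh1 and Fh1 were lowest in M1 cells with clear separation. The M2 groups overlapped in Idh1, while in Fh1 the 10058F4 arrays lay below the M2 and nutlin-3a arrays and overlapped only the M0 arrays. Mdh2 arrays overlapped between all neighbouring groups, and so did those of Ogdh.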

How the data were processed

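Gene expression was measured in 15 cultures on oligonucleotide arrays. The deposited values are log2 signals that the authors computed by RMA, as named in the submitters' processing notes (background correction, normalization and one value per probe set); the signal of dim and very bright probes is compressed on this scale, and arrays have no read depth, so 3 arrays a group limit the precision. Of 45101 probe sets, 64 were controls, 34945 named 1 gene, 932 several and 9160 none; 34741 gene IDs were found in RefSeq. The titles give each array's group and replicate number.

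A gene took its brightest own probe set and was tested if it exceeded the 40th percentile of 3 or more arrays (13703 genes). One linear model over all 15 arrays with 5 group means was fitted with limma 3.58.1 in R 4.3.3 (10 residual and 3.86 prior degrees of freedom), with Benjamini-Hochberg adjustment within each of 6 comparisons and calls at an adjusted p under 0.05. Beyond the members, up to 4 called genes per list and comparison were named by the size of the difference, or the 2 with the smallest p where fewer than 2 were called. Members and lists were chosen with earlier results of these data known. The script was tested on simulated data. Same-numbered arrays deviated together between M2 and M0 (r = 0.232 to 0.424) and between nutlin-3a and M2 (0.337 to 0.381). They also did so between 10058F4 and M2 (0.308 to 0.368) and between the 2 agents (0.341 to 0.408). Numbers thus pair these cultures, as read from the data. With M1 arrays r was weaker, at 0.055 to 0.263, though above that of differently numbered arrays (-0.183 to 0.0196). Promoter sequences are from RefSeq on GRCm38.p6. Alternatives covered the filter, probe set choice, scaling, variance model, arrays fitted, the replicate block and each array left out.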

Additional observations from a re-analysis of the deposited data

How the results depend on the processing

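The 22.3-fold rise of Acod1 in M1 against M0 cells and its fall under 10058F4 kept their direction and passed the threshold in all 16 alternatives each (adjusted p at most 9.39e-07 and 0.00709). The falls of Fh1 and Idh1 in M1 cells did so wherever these genes had a probe set. Neither has one without the suffix _a_at, _s_at or _x_at, so the alternative that drops such probe sets gave no value for them. Over all comparisons and alternatives, the 8 cycle genes stayed as in the main fit, called or not called, 704 times. That count includes genes called in neither fit, so it does not measure how often a call was kept. The genes lost a call 35 times, gained one 8 times and reversed 3 times. A change of sign between 2 values that both missed the threshold was not counted. Centring each array gave all 3 reversals, Cs in M1 against M0 (0.072) and Sdhb (0.22) and Mdh2 (0.20) in M1 against M2, and put 2 of the 8 cycle genes higher instead of 0 in both of these and 2 instead of 1 in M2 against M0. It also moved the calls over all genes to 7619 higher and 3505 lower (M1 against M0), 2801 higher (M2 against M0), 6896 higher (M1 against M2) and 1320 lower (nutlin-3a against M2), and left 0 cycle genes higher with nutlin-3a than with 10058F4. The stricter filter, which tests fewer genes, gave 2962 genes higher in M1 against M0.

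With probe sets free of a suffix, the cycle genes called lower were 2 in M1 against M0, 0 in M2 against M0 (and 0 higher), 3 in M1 against M2 and 2 with nutlin-3a; Idh2 turned to 0.49 and 0.41 in M1 against M0 and M2, Gpt2 to 0.32 in M1 against M0 and -0.060 with nutlin-3a, and Ogdh minus Idh3a to -0.057 in M1 against M0. The mean of all probe sets gave 0 cycle genes higher in M2 against M0 and 2 lower with 10058F4, and no filter gave 2 lower with 10058F4 and 0 higher between the agents. A second quantile normalization gave 2 cycle genes lower with nutlin-3a. Array weights raised the calls to 2022 higher and 1280 lower (nutlin-3a), 2201 and 2110 (10058F4) and 1272 and 772 (between the agents), and the 6 arrays alone gave 875 and 608 between the agents with 0 cycle genes. The cause of these shifts was not tested.

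Leaving out 1 array gave 756 to 980 genes higher and 462 to 579 lower with nutlin-3a, with 0 to 1 cycle genes lower, 2 to 4 cycle genes lower with 10058F4, and 339 to 464 higher and 213 to 258 lower between the agents, with 0 cycle genes. Acod1 then ranged from -0.54 to -0.16 in M2 against M0 and from 0.55 to 0.76 between the agents. With the replicate block, 2 cycle genes fell in M2 against M0, and apart from the list genes given in the report it changed no other named call in the paired comparisons. Between M1 and M0 or M2 cultures, same-numbered arrays correlated weakly (r = 0.055 to 0.263) but above differently numbered ones (-0.183 to 0.0196). Whether numbers pair the M1 cultures is therefore not settled. The block called Ogdh lower in M1 against M2 (adjusted p = 0.0209).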
